A study of Mus musculus with 2 samples.

Results

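The genes described here are 10 AP-1 and immediate early genes, Fos, Fosb, Fosl2, Jun, Junb, Jund, Atf3, Egr1, Nr4a1 and Zfp36. They were chosen by name, with earlier results of these data already known. Each was read from the probe sets that the platform annotation assigns to exactly 1 gene. All 10 had a value, from 1 probe set each, among 19938 named genes in all. Expression was measured on 2 arrays, 1 of PDGFRα+ cells from Sox9 PreASKO mice and 1 of PDGFRα+ cells from Sox9 floxed mice. The cells were sorted with a PDGFRα antibody from the stromal vascular fraction, the non-adipocyte cells that collagenase releases from inguinal white fat. Both groups were female mice aged 6 weeks that had received doxycycline at postnatal day 1, and each array held RNA pooled from 3 animals. The labels do not name the promoter that drives recombination in PreASKO mice. With 1 array per group no value below has an error or a test, and every difference is a difference between these pools.

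Immediate early genes are switched on within minutes of a growth factor, a stress or a mechanical stimulus, from factors already present in the cell, before any new protein is made. FOS and JUN family proteins pair through a leucine zipper to form AP-1, which binds DNA at sites in many genes of growth, inflammation and matrix remodelling. ATF3 belongs to the same superfamily, EGR1 is a zinc finger factor, NR4A1 is an orphan nuclear receptor, and ZFP36 (tristetraprolin) speeds the decay of messenger RNAs with AU-rich elements. Mincing and enzymatic digestion of tissue are known to induce these genes in the cells that are released, and both samples went through such a digestion before sorting.

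The promoters of immediate early genes are known for binding sites of serum response factor (the CArG box), CREB (the cyclic AMP response element) and EGR proteins. RefSeq promoter windows of assembly GRCm38.p6, from 250 bases before to 50 bases after an annotated start, were found for 9 of the 10 genes, all but Egr1. They are shown for 4 members whose windows hold such motifs, as the 250 bases before the start, 5′ to 3′ on the strand of the gene. Capitals mark TGACG or its complement in Fos, Fosb and Nr4a1, TATAAA in Fos, the CArG box in Zfp36 and GCGGGGGCG or its complement in Zfp36, Fosb and Nr4a1. The Fos window is chr12:85473640-85473889 on the plus strand and the Zfp36 window chr7:28379229-28379478 on the minus strand. The Fosb window is chr7:19310046-19310295 on the minus strand and the Nr4a1 window chr15:101266596-101266845 on the plus strand.
Fos: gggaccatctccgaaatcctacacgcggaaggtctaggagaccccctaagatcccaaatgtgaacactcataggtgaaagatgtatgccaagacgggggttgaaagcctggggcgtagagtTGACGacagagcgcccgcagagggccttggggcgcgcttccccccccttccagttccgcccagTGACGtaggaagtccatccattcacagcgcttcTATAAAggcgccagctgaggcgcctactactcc
Zfp36: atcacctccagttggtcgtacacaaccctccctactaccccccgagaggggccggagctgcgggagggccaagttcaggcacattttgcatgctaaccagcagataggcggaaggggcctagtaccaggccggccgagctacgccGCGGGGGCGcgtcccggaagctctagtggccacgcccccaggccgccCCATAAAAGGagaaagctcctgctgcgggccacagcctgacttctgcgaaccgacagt
Fosb: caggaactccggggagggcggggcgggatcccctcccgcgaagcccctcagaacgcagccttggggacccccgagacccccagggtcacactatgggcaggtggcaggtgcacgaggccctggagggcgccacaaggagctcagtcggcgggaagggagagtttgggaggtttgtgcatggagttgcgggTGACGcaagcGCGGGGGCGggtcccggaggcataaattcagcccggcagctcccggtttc
Nr4a1: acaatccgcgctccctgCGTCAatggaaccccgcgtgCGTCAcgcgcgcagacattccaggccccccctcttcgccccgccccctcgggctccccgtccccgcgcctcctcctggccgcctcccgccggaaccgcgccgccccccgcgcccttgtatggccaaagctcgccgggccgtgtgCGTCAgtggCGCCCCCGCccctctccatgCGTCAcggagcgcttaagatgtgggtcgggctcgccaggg

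Both strands of the whole windows were searched. TGACG, the core of the cyclic AMP response element, was in 5 of the 9 member windows (Atf3, Fosb, Junb, Fos and Nr4a1), against 20.8% of all 32851 windows. Fos held it at 129 and at 66 bases before the start, and its TATAAA began 33 bases before the start. The full element TGACGTCA, which contains TGACG, was in 0 of the 9 and in 1.79% of all windows. The AP-1 site TGACTCA was in 0 of the 9 and in 5.20% of all windows. A CArG box was in 1 of the 9, Zfp36, beginning 58 bases before its start, against 1.63% of all windows. TATAAA was in 2 of the 9 (Junb and Fos), against 13.6% of all windows. In Junb it began at the annotated start itself and not before it. The EGR site GCGGGGGCG was in 4 of the 9 (Fosl2, Fosb, Zfp36 and Nr4a1), against 2.91% of all windows. TGACG and the EGR site were added to the search after the windows had been seen. The member windows were rich in G and C, with a median of 64.7% against 52.7% over all windows. These are matches of letters in short windows and not measured binding. Sites more than 250 bases before a start, and any of Egr1, were not searched. A motif missing here can thus still lie further upstream.

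The 2 arrays correlated with r = 0.982 across 35556 probe sets. As a mark of background, the 95th percentile of 1027 olfactory receptor genes was used, which lay at 4.47 in PreASKO and 4.64 in floxed. The higher of these applied to both arrays. The label of the cells was checked against markers. All 9 measured stromal markers were above background, with Pdgfra at 9.55 in PreASKO and 9.86 in floxed. Macrophage markers were also present, with all 14 above background in both arrays. Of 5 measured adipocyte markers, 3 did not exceed background in either array, including Adipoq at 4.40 in PreASKO and 4.55 in floxed. The other 2 were above it, Plin1 at 5.41 in PreASKO and 5.46 in floxed, and the fatty acid binding protein gene Fabp4 at 10.75 in PreASKO and 10.60 in floxed. Sox9 itself was at 4.97 in PreASKO and 5.25 in floxed, a difference of -0.27. Both values were not far above the background of 4.64, and the standard deviation of the difference over all named genes was 0.27. The Sox9 difference is therefore no check of the deletion. The position of the Sox9 probes relative to the deleted exons was not examined here.

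Among the FOS proteins, Fos is the founding member of the family and the classic early response gene. Fos had a level of 11.13 in PreASKO and 11.11 in floxed, both as deposited RMA values in log2 units. Fosb, whose product pairs with JUN proteins as FOS does, was at 10.82 in PreASKO and 10.92 in floxed. Fosl2 encodes FRA-2, a family member with a slower and more lasting response. Its level was 6.91 in PreASKO and 6.80 in floxed. Fosl2 was the lowest of the 10 members in both arrays, yet it stood 2.27 above background in PreASKO and 2.16 above it in floxed.

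The JUN proteins are the partners of FOS and also pair with each other. Jun was at 11.15 in PreASKO and 11.07 in floxed. Junb, which can counteract JUN at some targets, was at 8.86 in PreASKO and 8.67 in floxed. Jund, the member of the family that resting cells express most steadily, was at 8.53 in PreASKO and 8.30 in floxed. All 3 were higher in PreASKO than in floxed, and their differences were the 0.08 of Jun, the 0.19 of Junb and the 0.23 of Jund.

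The remaining members act beside AP-1. Atf3, a stress-induced factor that pairs with JUN proteins, was at 11.15 in PreASKO and 11.16 in floxed. Egr1 was at 11.42 in PreASKO and 11.36 in floxed, the highest level of the 10 in each array. Nr4a1 was at 9.16 in PreASKO and 9.06 in floxed. Zfp36 was at 10.73 in PreASKO and 10.57 in floxed. None of the 10 genes came near background in either array.

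**Figure D1:**
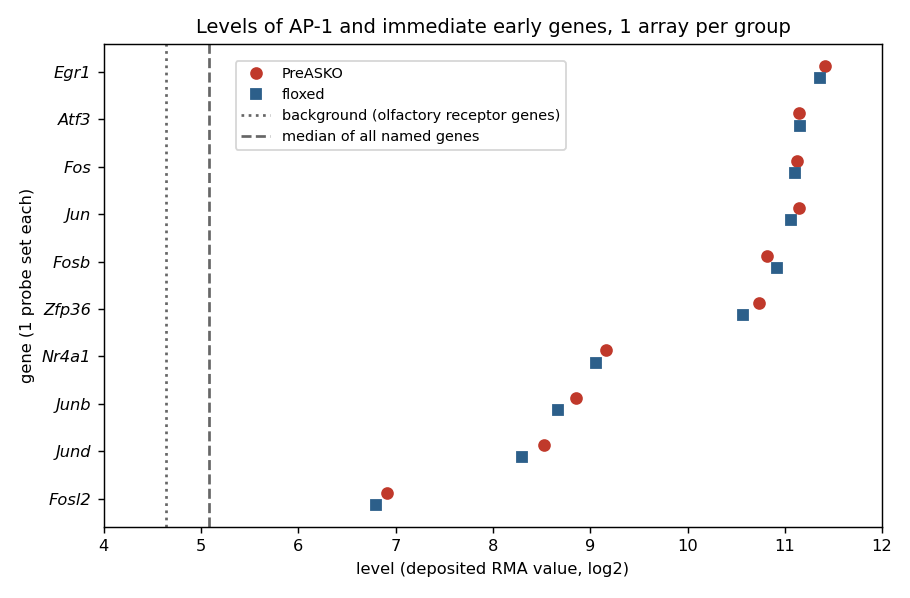
Deposited level (RMA value, log2) of each of the 10 genes in the PreASKO array (circles) and the floxed array (squares), with 1 array per group and no error bars. Egr1 is highest and Fosl2 lowest, and the symbols of a gene lie at most 0.23 apart.

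The first question was where these genes stood among all genes of each array, since a high rank of early response genes is commonly read as a mark of tissue dissociation. Probe sets differ in how well they bind, so a rank describes an array and not a number of transcripts. Of the 10 genes, 6 lay among the brightest 1% of named genes (199 genes) in both arrays: Fos, Fosb, Jun, Atf3, Egr1 and Zfp36. This count depended on the set that was ranked, as given under the processing below. Egr1 ranked at position 68 in PreASKO and 75 in floxed, where position 1 is the brightest gene. Fos ranked at 109 in PreASKO and 104 in floxed. Jun and Atf3 stood beside it, Jun at 105 in PreASKO and 108 in floxed and Atf3 at 106 in PreASKO and 96 in floxed. Fosb ranked at 140 in PreASKO and 126 in floxed, and Zfp36 at 152 in PreASKO and 171 in floxed. The same brightest 1% held 44 ribosomal protein genes in each array.

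The other 4 members ranked lower. Nr4a1 was at percentile 96.6 in PreASKO and 96.4 in floxed, and Junb at percentile 95.5 in PreASKO and 95.01 in floxed. Both lay within the brightest 5% of each array, which makes 8 of the 10 genes there. Jund was just outside it, at percentile 94.2 in PreASKO and 93.05 in floxed. Fosl2 was at percentile 79.0 in PreASKO and 77.8 in floxed. The median percentile of the 10 genes was 99.3 in each array. Dissociation was not varied in the study, and no array of undissociated tissue is used here. The part of the digestion in these levels and the part of the cells' own state cannot be told apart.

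**Figure D2:**
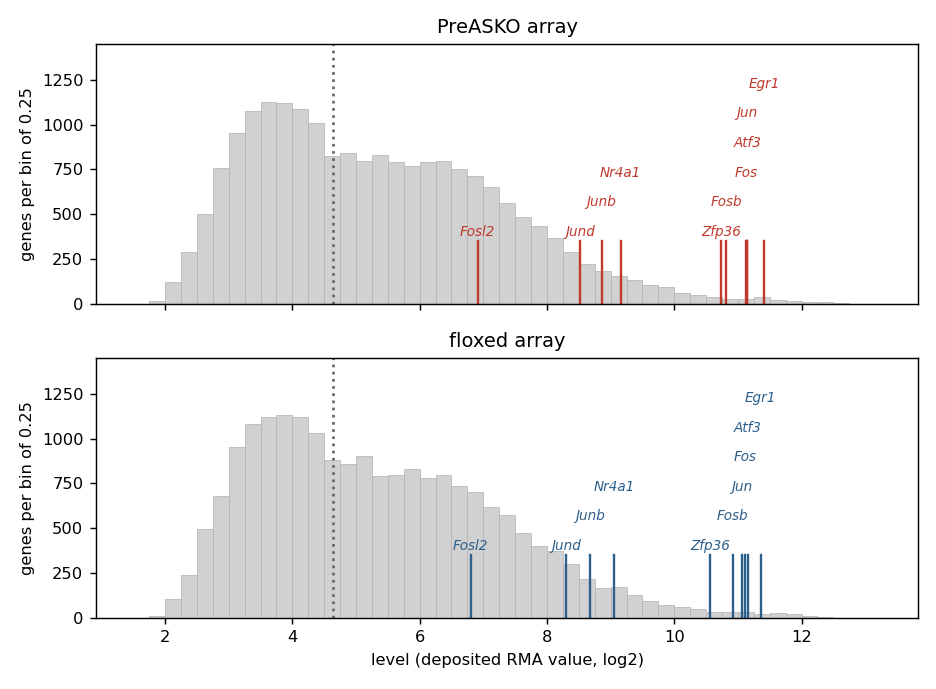
Histograms of the level of all 19938 named genes (RMA value, log2, bins of 0.25) in the PreASKO array (top) and the floxed array (bottom), with vertical lines at the 10 members and a dotted line at background. In both arrays 6 members lie in the far right tail, and only Fosl2 lies within the bulk of the genes.

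The second question was whether the genes differed between the genotypes. No member was 1.5-fold higher or lower in PreASKO, the limit that the series' design text names. Over all 19938 genes 1.66% reached this limit upwards and 1.98% downwards, so a count of 0 in 10 is near the background. At 1.2-fold the members' counts were also 0, where 13.7% of all genes were higher and 14.0% lower. The median difference, PreASKO minus floxed, was 0.09 over the 10 members and 0.00 over all genes. Of the 10 genes 8 were higher in PreASKO, where 48.2% of all genes were above 0. Among the 4220 genes whose mean level lay between those of Fosl2 and Egr1, 55.4% were higher and the median was 0.03.

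Single members differed by little. Jund had the largest difference, 0.23 or 1.17-fold, and 14.3% of the 1117 genes within 0.5 of its mean level were more positive. Junb followed with 0.19 (1.14-fold), which 18.1% of 842 genes of like level exceeded. Zfp36 differed by 0.17 (1.12-fold), exceeded by 16.2% of 148 genes of like level. All 3 thus lay within the ordinary run of genes as bright as they were. Fosl2 differed by 0.11, Nr4a1 by 0.10, Jun by 0.08, Egr1 by 0.06 and Fos by 0.02. Fosb and Atf3 ran the other way, Fosb by -0.10 and Atf3 by -0.01. The sign of Fos was not settled, since its difference became -0.04 after quantile normalization of the arrays and -0.01 after a loess correction on level. In absolute size, several differences lay near the middle of those of genes of like level. A larger absolute difference was found in 50.8% of such genes for Fosb, 52.9% for Jun, 56.3% for Nr4a1 and 57.9% for Fosl2. By sign, Fosb was not in the middle, since 81.1% of 132 genes of like level were more positive.

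**Figure D3:**
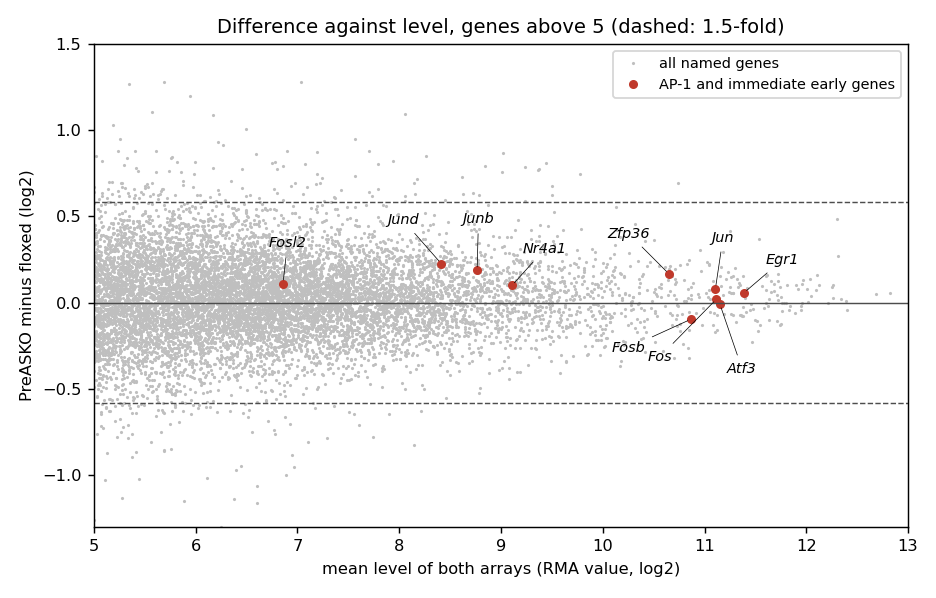
Difference PreASKO minus floxed (log2) against the mean level of both arrays for named genes with a mean level above 5 (grey; 5 genes lie beyond the vertical range) and for the 10 members (red). All members lie between -0.10 and 0.23, inside the dashed lines at 1.5-fold.

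The wider AP-1 and bZIP family was not as bright as the members. Both sets of genes were chosen with earlier results of these data known. Of 19 listed genes 18 had a value, and 16 of these were above background in both arrays. None was among the brightest 1% and 2, Atf4 and Atf1, were among the brightest 5% of both arrays. The median percentile of the list was 82.8 in PreASKO and 83.2 in floxed. Atf4, the effector of the integrated stress response, was at 9.31 in PreASKO and 9.36 in floxed. Fosl1, which encodes FRA-1 and is itself a gene that AP-1 induces, was at 5.95 in PreASKO and 6.08 in floxed. Jdp2 and Batf follow Fos in this order on mouse chromosome 12 in the RefSeq table. Jdp2, a repressor of AP-1, was at 7.57 in PreASKO and 7.52 in floxed, and Batf, an AP-1 factor of immune cells, at 6.08 in PreASKO and 5.73 in floxed. Neither of these genes was among the brightest 5% in either array. In the whole list 8 genes were higher and 10 lower in PreASKO, none by 1.5-fold, with a median of -0.04 against 0.00 for all genes. The most positive differences were those of Atf7 (0.36), Batf (0.35) and Mafk (0.30), and the most negative those of Maff (-0.30), Batf3 (-0.25) and Atf1 (-0.24).

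Other immediate early genes were bright as well, though less uniformly. All 43 listed genes had a value above background in both arrays, and 19 were among the brightest 5% of both. The brightest were Dusp1, a phosphatase that switches off MAP kinases, and Ccn1, a secreted matricellular protein gene. Dusp1 was at 11.77 in PreASKO and 11.73 in floxed, position 36 in PreASKO and 37 in floxed. Ccn1 was at 11.35 in PreASKO and 11.58 in floxed. Nfkbia, the inhibitor of NF-κB that NF-κB induces, was at 10.70 in PreASKO and 10.63 in floxed, and the Kruppel-like factor gene Klf6 at 10.48 in PreASKO and 10.54 in floxed. Relatives of the members did not all rank with them. Nr4a2 was at percentile 58.1 in PreASKO and 57.8 in floxed, and Egr3 at percentile 63.7 in PreASKO and 62.1 in floxed. Egr2, by contrast, was at percentile 99.0 in PreASKO and 98.8 in floxed. These 3 relatives were singled out after their values had been seen.

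Between the arrays, 24 of these 43 genes were higher and 19 lower in PreASKO, none by 1.5-fold, with a median of 0.01. This balance turned with the scaling, to 20 higher and 23 lower after quantile normalization and 21 higher and 22 lower after loess correction. The most positive were Nr4a3 (0.30), a relative of Nr4a1, then Ier2 (0.25) and Klf4 (0.25). The most negative were Ccn2 (-0.48), the connective tissue growth factor gene, then the phosphatase gene Dusp5 (-0.40) and the stress gene Gadd45g (-0.39). Ccn2 was at 6.69 in PreASKO and 7.17 in floxed. The list ran from -0.48 to 0.30. It holds more genes than the 10 members and dimmer ones, so its range was not set against theirs.

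Genes that carry the signal to the early genes were measured in part. Of 28 listed kinases and factors 23 had a value, 19 of them above background in both arrays. The JNK genes Mapk8 and Mapk9 encode kinases that phosphorylate JUN. Mapk8 was at 6.55 in PreASKO and 6.61 in floxed, and Mapk9 at 6.92 in PreASKO and 7.09 in floxed. Mrtfb, a coactivator of serum response factor, was at 7.25 in PreASKO and 6.97 in floxed, a difference of 0.28 and the most positive of the list. Prkacb, a catalytic subunit of the cyclic AMP-dependent kinase, had the most negative, -0.33. Of the 23 genes 13 were higher, 9 lower and 1 equal, none by 1.5-fold, with a median of 0.09. None was among the brightest 5%, and activity of these kinases is set by phosphorylation, which arrays do not measure.

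Genes known as AP-1 targets had 17 measured members of 20, 16 of them above background in both arrays. The brightest were the metallothionein genes Mt2 and Mt1 and the chemokine genes Ccl2 and Cxcl1. Ccl2, a monocyte attractant, was at 11.36 in PreASKO and 11.20 in floxed. Cxcl1, a neutrophil attractant, was at 10.81 in PreASKO and 10.61 in floxed. Mt2 was at 11.45 in PreASKO and 11.30 in floxed, and Mt1 at 11.17 in PreASKO and 11.10 in floxed. All 4 lay among the brightest 1% of both arrays, as did the 6 bright members. Of the 17 genes 11 were higher and 6 lower, none by 1.5-fold, with a median of 0.16 against 0.00 for all genes. That median became 0.08 after quantile normalization and 0.08 with values raised to background. The gelatinase gene Mmp9 (0.44), the cyclin gene Ccnd1 (0.31) and the protease inhibitor gene Timp1 (0.28) were the most positive. Lif (-0.37), Plau (-0.16) and Hbegf (-0.15) were the most negative.

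Zfp36 has its own family and targets. Its relative Zfp36l1 was at 9.75 in PreASKO and 9.58 in floxed, and Zfp36l2 at 8.22 in PreASKO and 7.97 in floxed. Both were higher in PreASKO, by 0.17 and 0.25, as Zfp36 was. Zfp36l3, a gene of the mouse placenta, was below background at 4.02 in each array. Of 8 transcripts known to be bound by ZFP36, 5 were above background in both arrays. Tnf, the founding target, was at 9.18 in PreASKO and 8.90 in floxed. Cxcl2 was at 10.60 in PreASKO and 10.62 in floxed. Il10, an anti-inflammatory cytokine gene, differed by 0.53. Il1b, at 6.33 in PreASKO and 5.05 in floxed, was the 1 gene of this list past 1.5-fold, with a difference of 1.28. Its floxed value was not far above the background of 4.64, and 1.66% of all named genes were at least 1.5-fold higher. The list had 4 genes higher, 3 lower and 1 equal, and its median was 0.12, or 0.00 with values below background raised to it.

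Heat shock and chaperone genes, which digestion is also known to induce, were set beside the members. All 12 with a value, of 14 listed, were above background, and 10 were among the brightest 5% of both arrays. Hspa8, the constitutive HSP70 gene, was at 11.83 in PreASKO and 11.85 in floxed. Hspa1a, the inducible HSP70 gene, was at 10.45 in PreASKO and 10.73 in floxed. It has a near-identical copy, Hspa1b, with which its probes can share signal. Here 1 gene was higher and 11 were lower in PreASKO, none by 1.5-fold, with a median of -0.12. The number lower was 11 after either rescaling, 10 when the probe sets of a gene were averaged and 9 with its dimmest probe set. The small heat shock gene Hspb1 had the most negative difference (-0.40), and the co-chaperone gene Bag3 was the 1 that was higher (0.17). Heat shock genes and the 10 members, both bright in each array, thus had medians of opposite sign, each smaller than 1.2-fold. The difference between the lists was not tested.

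Housekeeping genes give a scale for these ranks. Of 14 listed genes 12 had a value, and their median percentile was 98.4 in PreASKO and 98.5 in floxed. Actb was at 12.36 in PreASKO and 12.33 in floxed, and the elongation factor gene Eef1a1 at 12.38 in PreASKO and 12.43 in floxed. Of the 12 genes 6 were higher and 6 lower, with a median of 0.00. The list was mixed in rank, since Tbp lay at percentile 67.6 in PreASKO and 63.5 in floxed. Stromal markers had a median percentile of 99.4 in PreASKO and 99.5 in floxed, so a rank as high as the members' was not particular to them.

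**Figure D4:**
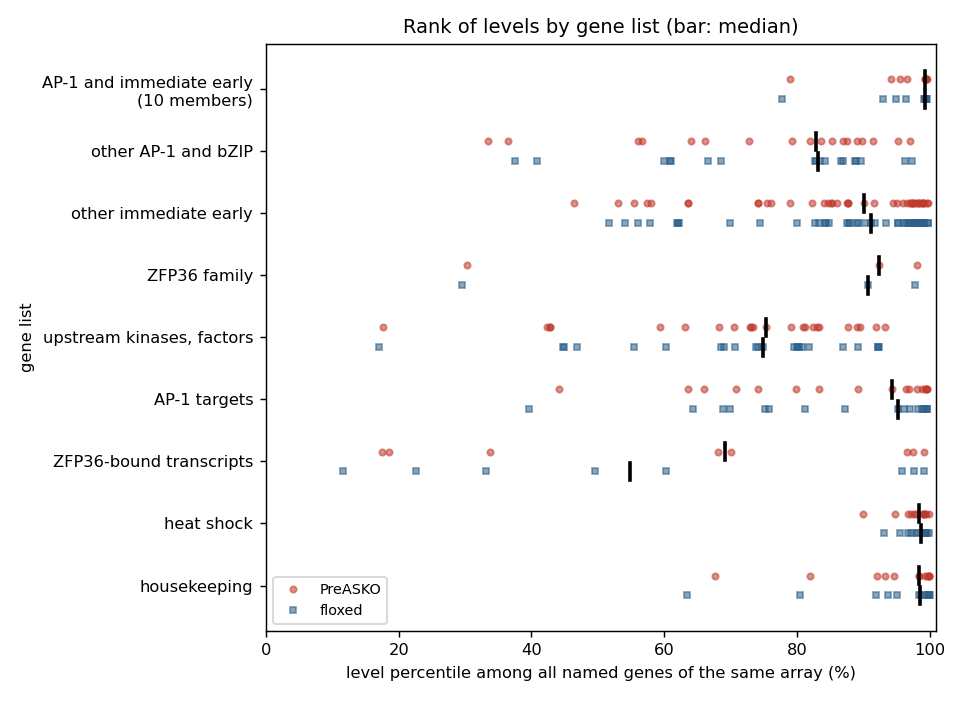
Level percentile of each gene among all named genes of the same array, by gene list, for PreASKO (circles) and floxed (squares), with a bar at each list's median. The medians of the 10 members are 99.3 in both arrays. Those of the heat shock genes are close to them (98.5 in PreASKO and 98.7 in floxed). Those of the other AP-1 and bZIP genes are lower (82.8 in PreASKO and 83.2 in floxed).

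Markers of macrophages moved between the arrays beside these genes. All 14 measured macrophage markers were higher in PreASKO, by 0.22 to 0.77 with a median of 0.44, and 2 passed 1.5-fold, Tyrobp and C1qa. The summed level of the 14 genes, added on the linear scale and given as log2, was 13.27 in PreASKO and 12.82 in floxed. None of these markers was at background, and the lowest was Itgam in PreASKO, at 6.63, and Fcgr1 in floxed, at 6.23. Macrophages also express Fos, Jun, Egr1 and Zfp36. In sorted pools more cells of a type and more RNA per cell cannot be told apart. The part of the macrophage transcripts in the differences of Junb, Jund, Zfp36, Tnf or Il1b was not tested. Stromal markers, by comparison, had 2 genes higher and 7 lower of 9, with a median of -0.05.

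**Figure D5:**
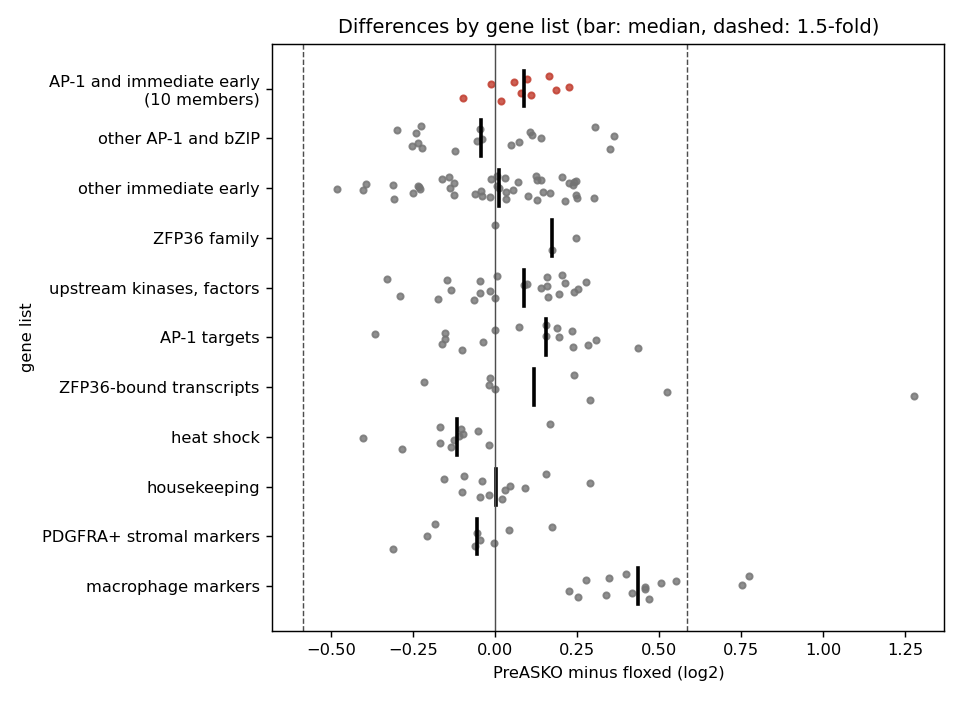
Difference PreASKO minus floxed (log2) of each gene by list, with a bar at the list's median and dashed lines at 1.5-fold; the vertical spread within a list only separates the points. The 10 members (red) run from -0.10 to 0.23, and the 14 macrophage markers from 0.22 to 0.77.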

How the data were processed

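PDGFRα+ cells of 2 groups were profiled on 1 biotin-labelled array each. The deposited values are on the log2 scale: per the submitters' processing notes the authors used RMA, which corrects background, makes arrays alike and summarises each probe set. The log base was read off the values (1.23 to 13.8). The version and any filter are not given in the sources used here. RMA compresses differences of dim genes and would remove a shift common to most genes. The labels name polyA RNA as the molecule and a total RNA extraction.

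Of 35556 probe sets 21789 name 1 gene in the platform annotation, 1621 several and 12146 none. The probe set with the highest mean stood for each of the 19938 genes. Older names of 4 list genes were updated through RefSeq (GRCm38.p6). List genes without such a probe set were not used here. The level percentile is the share of named genes at or below a value in the same array. Genes of like level lay within 0.5 of a member's mean level.

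The members and lists were chosen with earlier results of these data known. All 10 members are named. In each list the 4 brightest genes and the 3 most positive and 3 most negative above background were eligible to be named, and Fosl1, Jdp2, Nr4a2, Egr2, Egr3, Mapk8, Sox9, Itgam and Fcgr1 were named in addition. No test was possible, and the number of arrays limits the precision. The 1.5-fold calls and the rescaling steps were tested on simulated data, with shifts larger than any member's difference. That test does not bear on differences as small as the members'. Alternatives were other probe set rules, quantile normalization, loess (span 0.3), centring, raising values to background, other fold limits and other sets for ranking. Python 3.11.15, pandas 2.3.3, numpy 2.4.6, statsmodels 0.14.6 and matplotlib 3.10.9 were used.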

Additional observations from a re-analysis of the deposited data

How the results depend on the processing

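No member passed 1.5-fold under any alternative run, and the counts were also 0 at 1.2-fold and 2-fold. The members' median difference ran from 0.04 (quantile normalization) to 0.09, no member's difference moved by more than 0.068, and Fos alone changed sign. The median level percentile of the members became 98.1 in PreASKO and 98.1 in floxed when all 35556 probe sets, named or not, were ranked. No member was then in the brightest 1%, the highest being Egr1 at 98.99 in PreASKO and 98.97 in floxed. Nr4a1, at 94.9 in PreASKO and 94.56 in floxed, and Junb, at 93.89 in PreASKO and 93.3 in floxed, left the brightest 5%. Ranked among genes above background in both arrays, Fosl2 lay at percentile 62.0 in PreASKO and 59.7 in floxed. In that ranking Fos, Jun, Atf3 and Egr1 stayed in the brightest 1% of both arrays, and Fosb and Zfp36 left it. Nr4a1 and Junb left the brightest 5%. With values raised to background the medians of ZFP36-bound transcripts and of lymphocyte markers became 0.00 and that of mural markers -0.16, by construction, since dim members then have no difference. No replicate could be left out. No paired analysis was possible because there is only 1 array of each genotype.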

Other observations

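The brightest 1% of named genes were nearly the same in both arrays. Of the 199 genes in each array, 187 were shared, which is 94.0% of either set. They held 44 ribosomal protein genes, 3 collagen genes, 5 chemokine genes of the Ccl and Cxcl groups, 6 heat shock genes, 4 further immediate early genes and 6 of the 10 members in each array. The dimmest gene of the set was at 10.41 in PreASKO and 10.40 in floxed.

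Partners and corepressors of EGR1 and NR4A1 were of middling level. Nab2, a corepressor of EGR proteins that EGR1 itself induces, was at 7.49 in PreASKO and 7.38 in floxed. Nab1, its relative, was at 6.39 in PreASKO and 6.53 in floxed. Rxra, a retinoid receptor that can pair with NR4A1, was at 6.91 in PreASKO and 6.79 in floxed. The 4 genes of this list had a median difference of 0.09.

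Markers of other cell types differed without passing 1.5-fold except for single genes. Of the 6 endothelial markers 5 were lower and 1, Cdh5, was higher (0.07), with a median difference of -0.17. Only 3 were above background in both arrays, and 2 exceeded it in neither. Kdr differed by -0.69, at 4.86 in PreASKO, close to the background of 4.64, and 5.55 in floxed. With values raised to background the endothelial median became -0.07. Of the 8 mural markers 5 were lower and 3 higher, with a median of -0.37. Kcnj8 was at -0.62, and in the other direction Notch3 was at 0.46, Myh11 at 0.40 and Rgs5 at 0.10. Myh11, at 4.83 in PreASKO, was below background in floxed at 4.43. Rgs5 was close to background in both arrays, at 4.80 in PreASKO and 4.70 in floxed. Of 8 lymphocyte markers 5 were higher and 3 lower, and 5 lay below background in both arrays. Of the 3 above it Cd3e differed by 0.88, Cd8a by 0.13 and Cd3g by 0.12. All 3 were close to background in floxed, Cd3e at 4.96, Cd8a at 4.93 and Cd3g at 4.78.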
